A study of Mus musculus with 8 samples.

Results

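The ventricles of 4 PBS-injected mice were examined on their own, as a picture of the mRNA that a healthy young heart contained. They were the 4 samples of the series' 8 that carried the treatment label PBS, and they are named here by their replicate codes as PBS 1-1, PBS 1-3, PBS 2-1 and PBS 2-5. All 4 were male C57BL/6 mice that received a subcutaneous injection of PBS (phosphate-buffered saline, the vehicle) at 7 weeks of age and whose ventricular tissue was taken 14 days later. They carried no tumor cells and no engineered allele. The other 4 samples came from mice injected with LLC1 lung carcinoma cells and are not compared here. Of the 43346 genes in the deposited table, the 22032 with the biotype protein-coding were described.

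Ventricular muscle is built mainly of cardiomyocytes, which contract without rest. Each beat begins when calcium enters the cell and triggers a larger release from the sarcoplasmic reticulum, and it ends when a calcium pump takes the ion back. The myofilaments and the pump are fed by mitochondria, which in the adult heart burn fatty acids in preference to glucose. Fibroblasts, endothelial cells, mural cells and macrophages lie between the muscle cells and outnumber them, although each holds much less RNA.

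The 4 libraries held from 12480706 to 16192158 counts, and protein-coding genes took 86.8% of the counts in PBS 1-1 and 93.8% to 94.6% in the other mice. Abundance is given as TPM, a measure of transcript number: the count of a gene divided by its deposited length and scaled so that the protein-coding genes of a mouse sum to 1000000. A difference in TPM between genes is therefore a difference per transcript length. Values are the mean ± SD over the 4 mice unless they are listed in the order PBS 1-1, PBS 1-3, PBS 2-1 and PBS 2-5. The 37 genes of the mitochondrial genome were listed at 0 in every mouse, so ranks and shares hold among nuclear genes and the mitochondrial subunits described below are those encoded in the nucleus. A gene without a count in a library could still have been present at up to 3 counts, or 0.185 to 0.240 CPM (counts scaled to a library of 1000000), and this limit covers counting error only. The Y-linked gene Ddx3y stood at 43.7 to 55.7 TPM, and the X-inactivation transcript Xist had 14 to 32 counts in a library.

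The ventricular mRNA was concentrated in few genes. A TPM of at least 1 in all 4 mice was found for 12552 protein-coding genes (57.0%), while 4964 genes (22.5%) had no count in any mouse. The 245 most abundant genes together made up 50% of the mRNA, and the top 20 alone made up 20.1%. Only 5 genes reached 10000 TPM, and they held 10.2% of all TPM, against 8 genes with 14.1% when the length of the principal transcript was used. The principal transcript is the longest one with an APPRIS principal tag in the reference annotation. With deposited lengths, a further 138 genes lay between 1000 and 10000 TPM and held 32.3%. The largest band by number among genes of at least 1 TPM, 7145 genes between 10 and 100 TPM, held 23.8%, and the 4586 genes between 1 and 10 TPM held 2.15%.

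Myoglobin (Mb), the oxygen store of red muscle, was the most abundant nuclear-encoded protein-coding transcript in every mouse. It lies at chr15:77015489-77050670 of the mm10 build and stood at 29832, 31296, 31634 and 29823 TPM, which was 3.06% of the mRNA. The alpha myosin heavy chain Myh6, the fast motor of the adult mouse ventricle, followed at 23074, 23270, 23841 and 24894 TPM. Cardiac actin (Actc1) stood at 19401, 23892, 21019 and 21569 TPM. Their order held in 3 of the 4 mice: in PBS 1-3 cardiac actin exceeded Myh6. The light chains Myl3 (14026 ± 374 TPM) and Myl2 (11996 ± 1052 TPM), which brace the myosin neck, completed the 5 genes above 10000 TPM.

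The 30 most abundant genes were almost entirely of 3 kinds. The first was the contractile apparatus, with 12 of its proteins among them when the LIM protein Csrp3, the chaperone Cryab and the titin cap Tcap are counted. The second was the handling of calcium, with the sarcoplasmic pump Atp2a2 (9603 ± 615 TPM) and its inhibitor phospholamban (Pln, 6946 ± 553 TPM). The third was energy supply, with the fatty acid carrier Fabp3 (9696 ± 138 TPM), the adenine nucleotide carrier Slc25a4 (7556 ± 292 TPM), myoglobin, the creatine kinases Ckmt2 and Ckm, lactate dehydrogenase B (Ldhb) and the respiratory subunits Cox7a1, Cox6a2, Cox8b, Cox6b1, Ndufa4, Atp5a1 and Atp5b. The 3 genes outside these groups were Fhl2, a LIM protein of heart muscle, Fth1, the heavy chain of the iron store ferritin, and Lars2, the mitochondrial leucyl-tRNA synthetase. Lars2 is known to hold a stretch that resembles ribosomal RNA, so its level is uncertain. Of these 30 genes, 28 to 30 were also in each single mouse's own top 30.

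**Figure D1:**
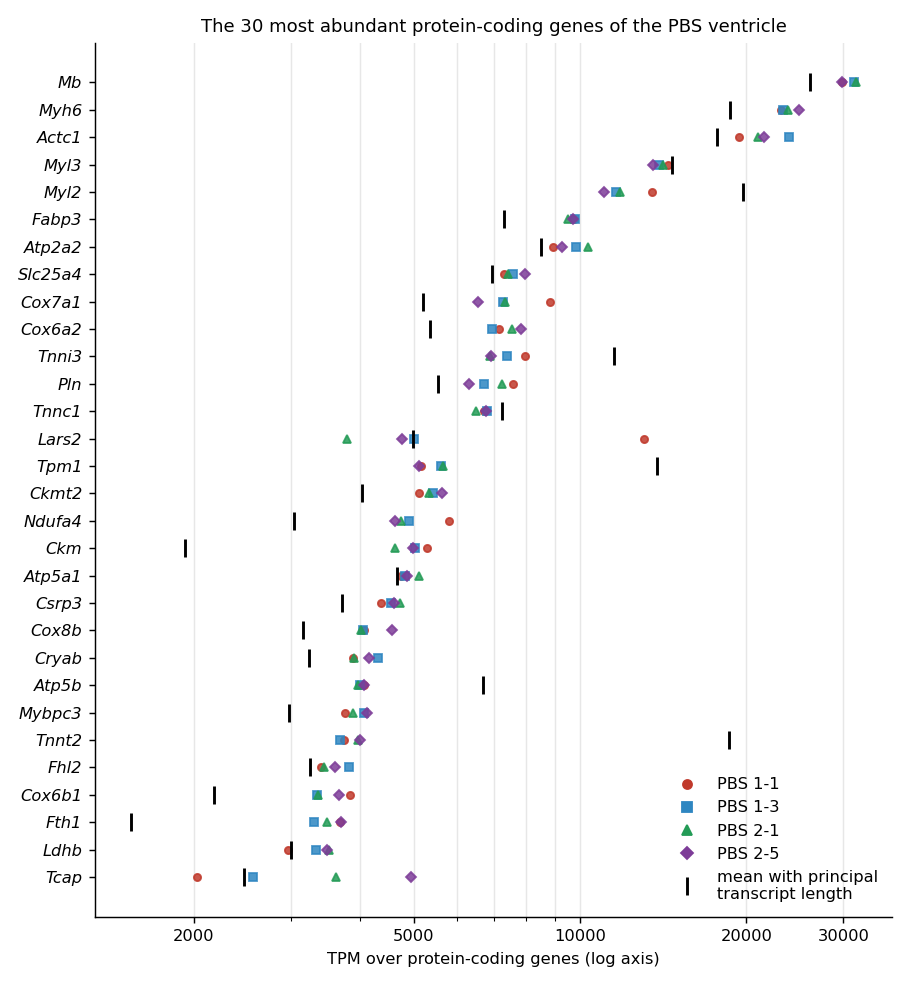
Abundance of the 30 protein-coding genes with the highest mean TPM in 4 PBS mice, on a log axis; each colored point is 1 mouse and each black bar is the mean when the principal transcript's length is used. The points of a gene lie close together except for Lars2, where PBS 1-1 stands at 13071 TPM, and Tcap, which ran from 2025 to 4948 TPM; the black bar of Tnnt2 lies far to the right of its points.

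The place of several genes in this order depended on the length assigned to them. The deposited length of troponin T (Tnnt2) was 7752 bases, against 1200 bases for its principal transcript, and Tnnt2 went from rank 25 with 3847 TPM to rank 4 with 18654 TPM when the latter was used. Tropomyosin Tpm1 went from rank 15 (5381 TPM) to rank 7 (13801 TPM) and Myl2 from rank 5 to rank 2 (19752 TPM), while Ckm went from rank 18 to rank 56 and Fth1 from rank 28 to rank 83. Troponin I (Tnni3), troponin C (Tnnc1) and troponin T form 1 complex, and with principal transcript lengths their abundances were 11542, 7240 and 18654 TPM, against 7273, 6680 and 3847 TPM with deposited lengths. Myoglobin was first with either length. The deposited length was over 3 times the principal transcript for 2.79% of genes, and 24 of the 30 leading genes were the same with both.

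The genes of the sarcomere, the repeating unit of the myofibril, held 12.3 ± 0.184% of the mRNA, and all 30 of those examined were detected in every mouse. Of them, 15 ranked among the 100 most abundant genes. Myh6 alone was 19.4% of the group, and the thick filament's myosin-binding protein C (Mybpc3) had 3961 ± 165 TPM. In the Z-disc, where thin filaments are anchored, alpha-actinin 2 (Actn2) stood at 2028 ± 188 TPM, desmin (Des) at 1777 ± 37.7 TPM and Ldb3 at 661 ± 18.3 TPM. The giant protein titin (Ttn, 307 ± 137 TPM) was low per transcript length although it had 120472 to 215414 counts per mouse. Titin stood apart in PBS 1-1, at 513 TPM against 237 to 241 TPM in the other 3 mice.

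Choice among related genes was examined in 56 families with 249 members. In 25 families a single member held over 90% of the family's TPM in every mouse, and in 47 a single member held over 50%. The leading member was the same in all 4 mice in 52 families. Among the others were the creatine kinases, the natriuretic peptides and the MEF2 factors. With principal transcript lengths the leading member was the same in 52 families.

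**Figure D2:**
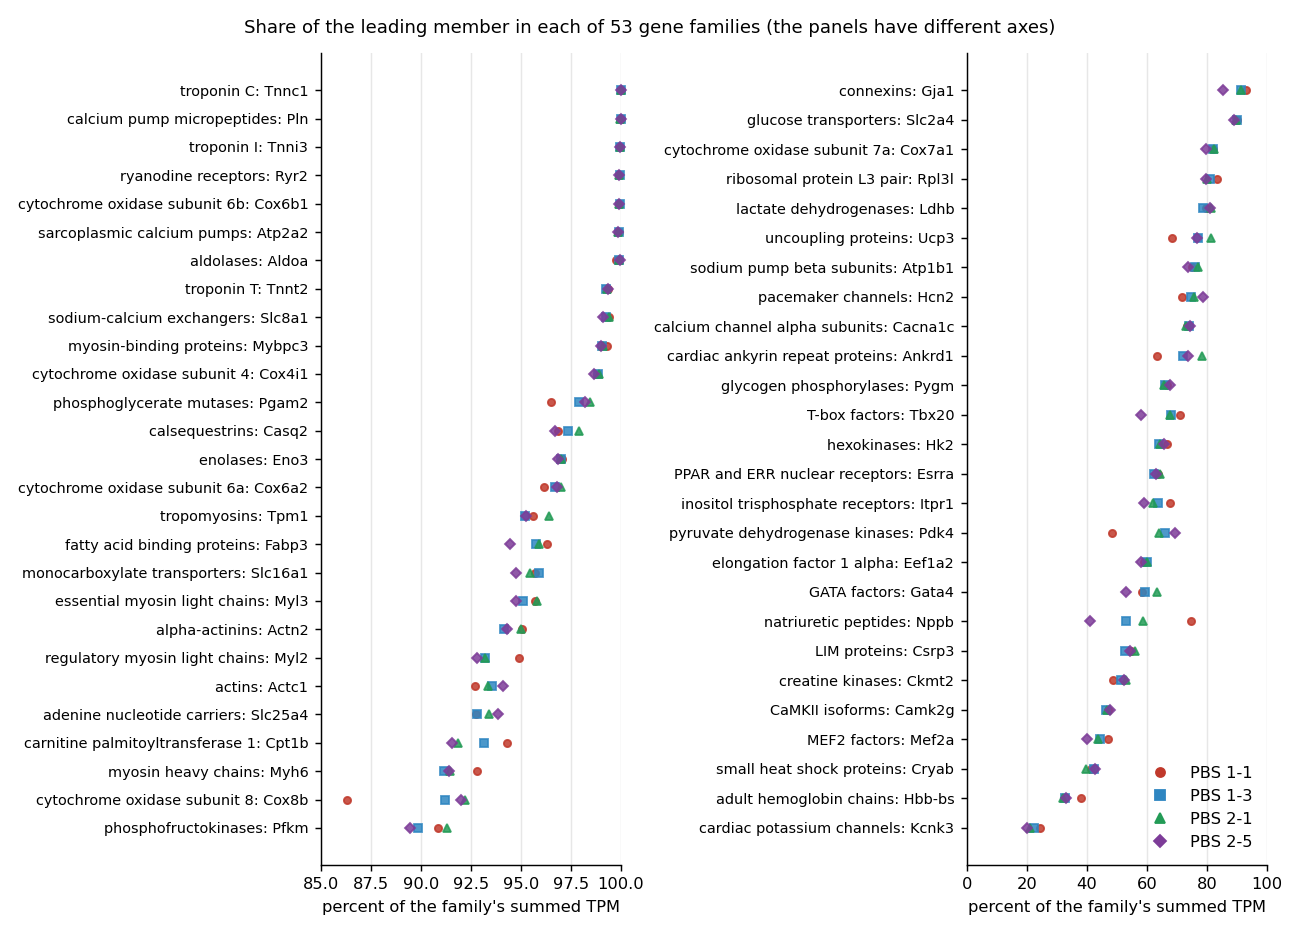
Share of the leading member in the summed TPM of each of 53 gene families, with 1 point per PBS mouse; the left panel runs from 85% to 100% and the right panel from 0% to 100%. Troponins, calcium pumps and ryanodine receptors lie at the right edge with 1 member near 100%, and the natriuretic peptides and Pdk4 show the widest separation between mice.

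The contractile families were given over to their cardiac members. Myh6 made up 92.8%, 91.2%, 91.4% and 91.4% of myosin heavy chain TPM. The slow, fetal-type beta chain Myh7, its neighbor in the genome, made up most of the remainder at 1464, 1935, 1937 and 2033 TPM. PBS 1-1 thus had the least Myh7 and the highest Myh6 share. The skeletal heavy chains Myh1, Myh2 and Myh4 and the embryonic Myh3 were each below 0.1 TPM on average, and Myh7b stood at 112 ± 23.6 TPM. Among the regulatory light chains the ventricular Myl2 held 93.5 ± 0.939%, and among the essential light chains the ventricular Myl3 held 95.3 ± 0.514%.

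The thin filament showed the same dominance. Tnni3 held 99.9%, Tnnc1 over 99.9% and Tnnt2 99.3% of their families. The slow skeletal troponin I (Tnni1), the form of the fetal heart, had 0.206 TPM. Cardiac actin held 93.4 ± 0.587% of actin TPM, ahead of skeletal actin (Acta1) at 594, 729, 676 and 399.5 TPM, which is itself raised in fetal and stressed hearts. Acta1 was lowest in PBS 2-5. The cytoskeletal actins Actb (466 ± 39.5 TPM) and Actg1 (234 ± 47.5 TPM) and the smooth muscle actin Acta2 (205 ± 29.7 TPM) made up the rest. Tpm1 held 95.6% of tropomyosin TPM.

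Calcium cycling rested on 1 gene at nearly every step. Atp2a2, which returns calcium to the sarcoplasmic reticulum, stood at 8941, 9825, 10348 and 9298 TPM and held 99.9% of its family. Pln, which restrains it, stood at 7561, 6696, 7217 and 6311 TPM. Sarcolipin (Sln), the pump's inhibitor in the atrium, had 0 to 6 counts in a mouse. The pump exceeded its inhibitor Pln in every mouse, by the narrowest margin in PBS 1-1. Of the other partners, the ryanodine receptor Ryr2, the release channel, held 99.9% of its family at 576 ± 66.1 TPM, calsequestrin Casq2, which buffers calcium in the store, 97.2% at 1112 ± 94.0 TPM, and the exchanger Slc8a1 99.3% at 204 ± 19.7 TPM. The small calcium sensor S100a1 (2137 ± 134 TPM) and the histidine-rich calcium-binding protein Hrc (1670 ± 66.6 TPM) were more abundant than any of these 3. The level of Slc8a1 depended on length, at 141 TPM with principal transcript lengths and 27.8 TPM with the longest transcripts.

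Membrane channels were far less abundant than the pump and were shared among more members. The pore of the L-type calcium channel, Cacna1c, stood at 68.1 ± 1.59 TPM and held 73.7% of the calcium channel alpha subunits, followed by the T-type Cacna1g at 9.77%. Cacna1c stood at 165 TPM and held 88.5% with principal transcript lengths. Among 17 potassium channel genes the highest share of any member in any mouse was 24.2% with deposited lengths. The leak channel Kcnk3 stood at 244, 219, 225 and 205 TPM. In every mouse it led Kcnj11, the pore of the ATP-sensitive channel, at 178, 167, 192 and 193 TPM. With principal transcript lengths Kcnk3 had a mean of 168 TPM and Kcnj11 one of 51.2 TPM. Kcnip2, the auxiliary subunit of the transient outward current, stood at 169.6 ± 11.6 TPM, and with principal transcript lengths it led the family at 639 TPM, which was 52.8% of the TPM of these genes. Kcnd2 (24.0 TPM), whose channel it serves, was above Kcnd3 (7.93 TPM) in every mouse with deposited lengths, but in only 1 mouse with principal transcript lengths.

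Other membrane and signaling families varied in how far they were divided. Gap junctions were mostly Gja1, which stood at 604, 543, 578 and 414 TPM and held 90.2 ± 3.31% of connexin TPM. Its level was lowest in PBS 2-5. Of the CaMKII kinases Camk2g had 58.6 TPM and Camk2d 32.9 TPM, but this order depended on length. Camk2d, with a deposited length of 15928 bases, had more counts than Camk2g in every mouse and led with principal transcript lengths. The pacemaker channel Hcn2 (21.8 ± 1.31 TPM) exceeded Hcn4 (5.82 ± 1.21 TPM) in all mice.

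Nuclear-encoded subunits of the respiratory chain and ATP synthase held 11.1 ± 0.557% of the mRNA, against 12.3% for the sarcomere, and with 200 bases subtracted from each length the order turned, at 13.3% against 11.7%. All 84 were detected in every mouse, and 26 were among the 100 most abundant genes. By complex, cytochrome oxidase (complex IV) held 3.47% with 16 genes, NADH dehydrogenase (complex I) 3.19% with 37 genes, ATP synthase 2.69% with 17 genes, complex III 1.26% with 9 genes and succinate dehydrogenase (complex II) 0.415% with 4 genes. The sum was highest in PBS 1-1 at 11.9%, against 10.7% in both PBS 1-3 and PBS 2-1.

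Subunits of 1 complex differed widely from each other. Among genes with symbols of complex I, levels ran from 46.1 TPM for Ndufa4l2 to 5019 TPM for Ndufa4. The protein of Ndufa4 was long counted with complex I and later placed with cytochrome oxidase, so this range follows the symbols. The median of these genes was 647 TPM. In complex IV the range was from 3.46 TPM for Cox6b2, known from testis, to 7481 TPM for Cox7a1, a 2164-fold span. Complex II was the most even, from 413 TPM for Sdhc to 1336 TPM for Sdha, a span of 3.23-fold. In ATP synthase Atp5a1 (4889 ± 165 TPM) and Atp5b (4027 ± 46.8 TPM) stood highest, and the inhibitory factor Atpif1 (214 ± 19.6 TPM) lowest. Exons of an antisense transcript, Gm12999, overlap 33.7% of those of Atpif1. These places depended on length: with principal transcript lengths Cox6a2 (5346 TPM) was above Cox7a1 (5201 TPM), Sdhb (1868 TPM) above Sdha (1343 TPM) and Atp5b (6685 TPM) above Atp5a1 (4656 TPM), and Atpif1 (429 TPM) was no longer the lowest.

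**Figure D3:**
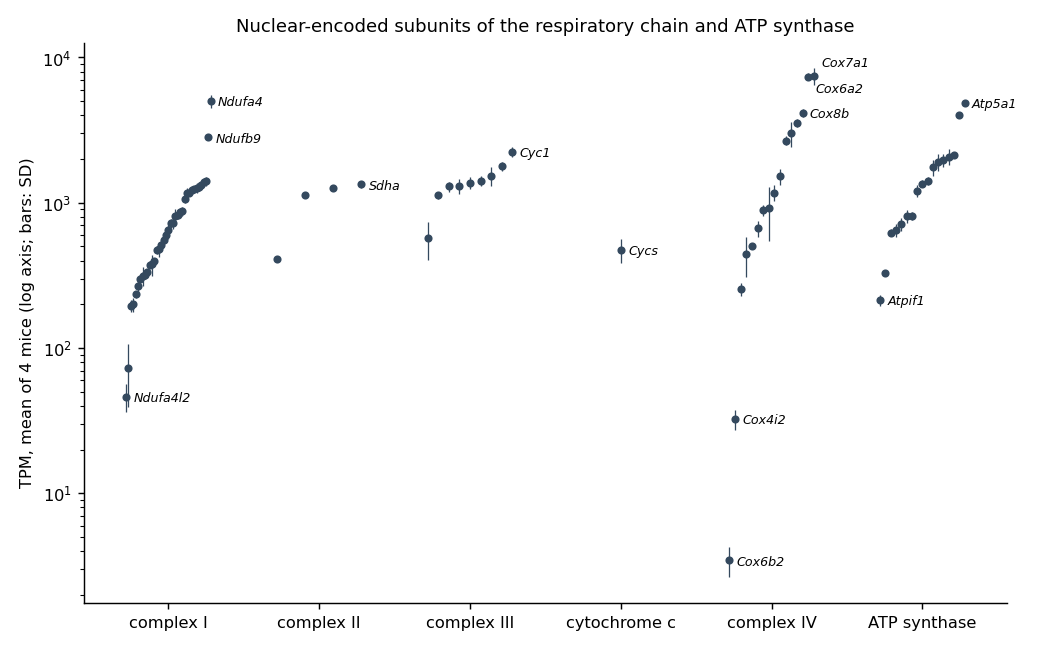
Mean TPM of 84 nuclear-encoded respiratory genes in 4 PBS mice, grouped by complex from their symbols and sorted within each, on a log axis with SD bars. Complex IV spans the widest range, from Cox6b2 at 3.46 TPM to Cox7a1 at 7481 TPM, and the 4 genes of complex II the narrowest.

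Where cytochrome oxidase has a muscle and a liver-type form, the muscle form led. Cox6a2 stood at 7137, 6936, 7539 and 7829 TPM and held 96.7% against Cox6a1. Cox7a1 stood at 8828, 7262, 7303 and 6532 TPM and held 81.6%, with the widely expressed Cox7a2 at 12.8%. Cox8b held 86.3%, 91.2%, 92.2% and 92.0% against Cox8a. The low Cox8b share of PBS 1-1 went with a high Cox8a, at 646 TPM against 340 to 398 TPM, while Cox8b itself was at 4069 TPM against 4020 to 4567 TPM. Cox5b showed the same split, at 1475 TPM in PBS 1-1 and 710.1, 705 and 784 TPM in the others, and so did Uqcrq of complex III, at 813 TPM against 427 to 539 TPM, and Ndufb2 of complex I, at 123 TPM against 54.3 to 57.3 TPM. The common form Cox4i1 held 98.8% over Cox4i2, which is known from lung and low oxygen.

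A class of 12 genes for oxygen storage and high-energy phosphate held 5.24 ± 0.0715% of the mRNA. Besides myoglobin, mitochondrial carriers such as Slc25a4, porins and adenylate kinases, it holds the creatine kinases, whose shuttle carries high-energy phosphate from mitochondria to myofibrils. The mitochondrial kinase Ckmt2 stood at 5105, 5420, 5331 and 5637 TPM and the cytosolic Ckm at 5279, 5032, 4634 and 4987 TPM. The order of the 2 therefore differed in PBS 1-1 with deposited lengths, whereas with principal or longest transcript lengths Ckmt2 was above Ckm in all 4 mice. Part of Ckm, 15.5% of its exon bases, overlaps an antisense transcript, A930016O22Rik, and the libraries do not record strand. The brain form Ckb had 120.4 ± 10.8 TPM.

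Genes of fatty acid use held 3.27 ± 0.0282% of the mRNA, the steadiest of the metabolic groups, and all 31 were detected. Fabp3, which carries fatty acids through the cytosol, led with 9763, 9814, 9500 and 9707 TPM. A gene listed as Fabp3-ps1 is 99.3% identical to it over 402 bases and had 25166 counts over the 4 mice against 143446 for Fabp3, so reads of the pair may have been divided. Lipoprotein lipase (Lpl), which frees fatty acids from circulating fat, stood at 2960 ± 186 TPM, and the uptake protein Cd36 at 1603 ± 43.4 TPM. The muscle form of the enzyme that admits fatty acids to mitochondria, Cpt1b, stood at 731, 775, 773 and 787 TPM and held 92.7% over the liver form Cpt1a (40.6, 52.2, 64.1 and 67.6 TPM). The dehydrogenases of beta-oxidation Acadvl (1655 TPM), Acadl (1563 TPM) and Acadm (1231 TPM), which take very long, long and medium chains, were close in abundance. Exons of Dvl2 on the opposite strand overlap 42.9% of those of Acadvl, whose level is uncertain to that extent.

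Glycolysis and lactate handling held 2.05 ± 0.137% of the mRNA with 17 genes. Aldolase A (Aldoa, 3216 ± 272 TPM) and the muscle enolase Eno3 (3059 ± 116 TPM) stood highest among the glycolytic enzymes with deposited lengths. With principal transcript lengths Gapdh (3961 TPM) was above Eno3 (2554 TPM) in every mouse, and Aldoa (4401 TPM) stayed above both. The heart form of lactate dehydrogenase, Ldhb, held 80.2 ± 1.17% against Ldha. Of the glucose transporter genes the insulin-regulated Slc2a4 was highest (446 ± 25.8 TPM), with Slc2a1 far lower at 14.4 to 23.8 TPM, and hexokinase was mainly Hk2 at 65.2%. The glycolytic sum was lowest in PBS 1-1, at 1.85% against 2.10% to 2.14%.

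The citric acid cycle and pyruvate entry held 2.81 ± 0.0507% with 27 genes, each of them detected. Cytosolic malate dehydrogenase Mdh1 stood at 2762 ± 112 TPM, and the NADP-linked isocitrate dehydrogenase Idh2 stood at 2128 ± 116 TPM. Of the kinases that switch off pyruvate dehydrogenase, Pdk4 led Pdk2 in every mouse, but by unequal margins: Pdk4 stood at 415, 937, 971 and 1188 TPM and Pdk2 at 365, 406, 471 and 463 TPM. With principal transcript lengths Pdk4 was above Pdk2 in 3 of the 4 mice.

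The translation machinery also showed a muscle pattern. Cytosolic ribosomal proteins held 3.90 ± 0.155% of the mRNA, and 84 of 86 genes were detected in all mice. The muscle-restricted Rpl3l stood at 604, 589, 551 and 582 TPM, and its widely expressed partner Rpl3 at 119, 137, 138 and 147 TPM. Elongation factor Eef1a2, the form of adult muscle and nerve, stood at 1224, 1515, 1569 and 1531 TPM, above Eef1a1 at 845, 1007, 1038 and 1110 TPM in each mouse. With principal transcript lengths Eef1a2 was above Eef1a1 in 3 of the 4 mice. Many ribosomal proteins have near-identical pseudogenes, so their levels are uncertain too.

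Stress-protective small heat shock proteins were abundant at rest. Cryab stood at 4055 ± 207 TPM, Hspb7 at 2897 ± 237 TPM, Hspb6 at 1137 ± 49.7 TPM and Hspb8 at 899 ± 89.9 TPM. Of the LIM proteins, Csrp3 (4566 ± 149.8 TPM) exceeded Fhl2 (3565 ± 192 TPM) in every mouse, also with principal transcript lengths, but with the longest transcripts Fhl2 exceeded Csrp3 in every mouse. The stretch-responsive Ankrd1 stood at 1486, 2325, 2851 and 1682 TPM and led its family in every mouse.

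Regulators of these programs were present at much lower levels. The 34 cardiac transcription factor genes together held 0.253 ± 0.00218% of the mRNA, and 33 were detected in every mouse. Hopx, a cofactor of cardiac differentiation, 27.2% of whose exon bases overlap the antisense Hopxos, led with 475 ± 35.0 TPM, followed by Nfe2l1 (372 ± 15.7 TPM) and the estrogen-related receptor Esrra (212 ± 6.00 TPM), a driver of mitochondrial genes. Mef2d (263 TPM) and Mef2a (192 TPM) were above Esrra (179.9 TPM) with principal transcript lengths. Gata4 stood at 96.5 ± 10.2 TPM and Tbx20 at 71.8 ± 8.63 TPM. Nkx2-5 stood at 120.5, 64.4, 56.7 and 60.7 TPM and was highest in PBS 1-1. Hand2, a factor of the embryonic heart, was present at 61.0 ± 17.4 TPM, whereas Hand1 had no count in any mouse. Mef2a (109 TPM) and Mef2d (103 TPM) were at like levels, and their order turned with principal transcript lengths.

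Receptors for hormones and transmitters, as far as examined, were each below 100 TPM with deposited lengths. The muscarinic receptor Chrm2, through which the vagus slows the heart, stood at 78.4, 76.7, 79.7 and 71.7 TPM and held 52.8% of 12 adrenergic and muscarinic receptor genes. Of the adrenergic receptors, Adra1b stood at 30.1 ± 3.76 TPM, Adrb1 at 14.9 ± 0.752 TPM and Adra1a at 10.6 ± 0.706 TPM. Adrb1 was above Adra1a in every mouse with deposited lengths and below it in every mouse with principal transcript lengths. Adrb3 was at 0.0644 TPM and Adra2a had no count. Of the peptide receptors, the insulin receptor Insr (78.6 ± 6.58 TPM), the apelin receptor Aplnr (65.2 ± 11.8 TPM), the growth hormone receptor Ghr (59.6 ± 4.50 TPM) and the angiotensin receptor Agtr1a (40.4 ± 4.63 TPM) were detected, and Agtr2 had no count. With principal transcript lengths Ghr was the highest of the peptide receptors, at 97.1 TPM. The thyroid receptor Thra (80.2 ± 11.2 TPM) and the glucocorticoid receptor Nr3c1 (45.0 ± 3.60 TPM) led a list of 12 steroid and thyroid receptor genes. With principal transcript lengths Thra stood at 124 TPM. The estrogen receptor Esr1 stood at 0.171 TPM, and Esr2 and Pgr had no count.

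The natriuretic peptides, hormones that heart muscle releases under wall stretch, differed between the mice. Nppb stood at 1520, 1074, 659 and 428 TPM. Nppa stood at 515, 945, 461 and 612 TPM. The share of Nppb in the family therefore ran from 41.2% in PBS 2-5 to 74.7% in PBS 1-1. An antisense transcript, Gm13054, covers 61.5% of the exon bases of Nppa and had 6478 counts over the 4 mice against 9794 for Nppa, and the level of Nppa is uncertain to that extent.

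Markers of the cell types that a ventricle holds were summed over lists of defining genes. Bulk RNA cannot separate fewer cells of a type from less RNA per cell. The 10 cardiomyocyte markers summed to 120857 ± 1525 TPM. Among the other types, fibroblast markers summed to 2760 ± 228 TPM, smooth muscle to 2270 ± 58.3 TPM, endothelium to 1471 ± 212 TPM, pericytes to 925 ± 62.1 TPM and macrophages to 902 ± 153 TPM. This order depended on length: with principal transcript lengths endothelium summed to 2752 ± 439.6 TPM and fibroblasts to 2487 ± 222 TPM, and endothelium was above fibroblasts in every mouse. The endothelial gene Fabp4 alone went from 408 to 1535 TPM between these lengths. All markers on these 6 lists were detected in every mouse. Smooth muscle rested mainly on desmin (1777 TPM), which heart muscle also expresses, followed by Smtn (213 TPM), Acta2 (205 TPM), Tagln (53.4 TPM) and the smooth muscle myosin Myh11 (17.8 TPM). Lmod1 (1.71 TPM) and Cnn1 (1.66 TPM) were the lowest of its 7 genes.

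**Figure D4:**
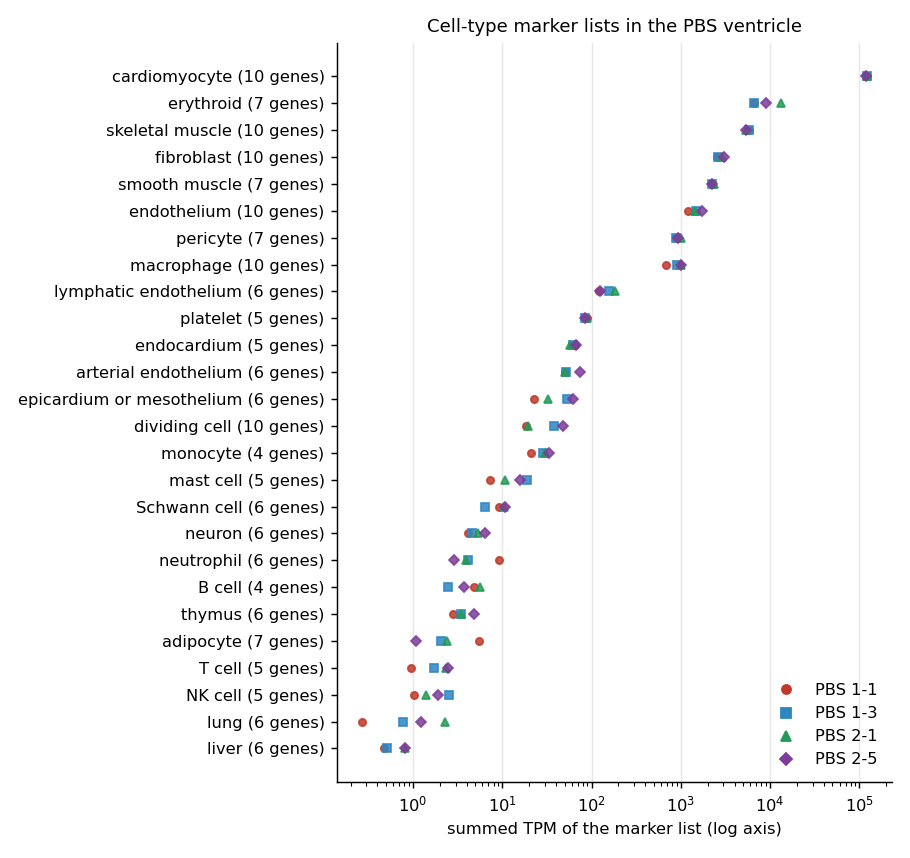
Summed TPM of 26 lists of cell-type markers in each of the 4 PBS mice, on a log axis. Cardiomyocyte markers lie far above the rest, the erythroid sum is highest in PBS 2-1 at 13210 TPM, and the lists for lung, liver, T cell and NK cell lie at the left.

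Interstitial cells were each carried by a few abundant genes. Fibroblasts were led by Gsn (1384, 1341, 1565 and 1630 TPM), which other cells also express, and by the proteoglycan decorin (Dcn, 647, 621, 703 and 679 TPM). The fibroblast-restricted Pdgfra (27.8 TPM) and Tcf21 (17.9 TPM) were lower. In endothelium, the junction protein Cdh5 stood at 135, 191, 195 and 230.0 TPM and Pecam1 at 87.4, 114, 103 and 119 TPM. Both were lowest in PBS 1-1, as was the rest of the list except Egfl7 and Emcn. Egfl7 was lowest in PBS 1-3 (121.1 TPM) and Emcn in PBS 2-5 (23.9 TPM). Macrophage genes were led by Lyz2 (319, 418, 498 and 442 TPM) and C1qa (92.7, 157, 159 and 163 TPM), with the receptor Csf1r at 34.1, 43.7, 52.6 and 58.5 TPM. Again PBS 1-1 had the lowest value of each, and of the whole list except Fcgr1, which was lowest in PBS 1-3 at 2.44 TPM. The macrophage sum was 683 TPM in PBS 1-1 and 909 to 1008 TPM in the others. Of all 13110 genes with a mean of at least 1 TPM, 20.7% were lowest in PBS 1-1 and highest in PBS 2-5. A further 12.4% were lowest in PBS 1-1 and highest in PBS 2-1.

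Collagen genes held 0.145 ± 0.0272% of the mRNA. The basement membrane chains Col4a1 (275, 405, 360.5 and 463 TPM) and Col4a2 (286 ± 44.4 TPM) exceeded the fibrillar chains Col3a1 (94.5, 164, 159.5 and 195 TPM) and Col1a1 (54.3, 89.6, 77.9 and 101 TPM). PBS 1-1 was lowest and PBS 2-5 highest for Col4a1, Col3a1 and Col1a1. The same held for 20.7% of all genes with a mean of at least 1 TPM. Of 44 collagen genes, 24 were detected in every mouse, and the cartilage collagen Col2a1 stood at 0.00823 TPM.

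Rarer cell types were traced in smaller sums. Lymphatic endothelium summed to 145 ± 29.2 TPM and endocardium to 62.4 ± 4.35 TPM. Platelets summed to 87.1 ± 2.71 TPM, of which Pf4 gave 73.9 TPM. The other platelet genes ran from 6.59 TPM (Gp1ba) down to 1.13 TPM (Gp9). Mesothelial genes, which mark the heart's outer covering, were uneven, at 22.6, 52.6, 32.6 and 62.7 TPM. The sum for genes of dividing cells followed the same order of mice, at 18.5, 38.0, 19.2 and 48.1 TPM. Single genes did not all do so: the proliferation marker Mki67, at 2.54, 5.99, 2.51 and 8.01 TPM, was lowest in PBS 2-1. Neutrophil (5.03 TPM), B cell (4.16 TPM), T cell (1.86 TPM) and NK cell (1.71 TPM) lists had low sums, and so had adipocyte genes (2.75 TPM). Among the neuronal markers, Dbh (3.40 TPM) and Tubb3 (1.69 TPM) were detected in every mouse, and no count was found for Th, Chat and Snap25.

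Hemoglobin and other erythroid transcripts, at 6595, 6579, 13210 and 8970 TPM in all, summed to more than the markers of any interstitial cell. The hemoglobin chain Hbb-bs stood at 2498, 2134, 4203 and 2945 TPM and Hba-a1 at 1470, 1589, 3328 and 2197 TPM, both highest in PBS 2-1. Alas2, the heme enzyme of red cell precursors, followed at 48.5, 55.1, 97.7 and 72.7 TPM. Hba-a1 and Hba-a2 are 99.8% identical over 538 bases, so how their reads were divided, and with it the level given for Hba-a1, is uncertain.

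The tissue label was checked against chamber and organ markers. The ventricular genes Myl2 and Myl3 stood at 11048 TPM or more in every mouse, and the ventricular factor Irx4 stood at 34.2, 33.3, 37.4 and 29.8 TPM. The atrial light chains Myl7 (3.30, 5.94, 8.03 and 4.02 TPM) and Myl4 (1.56, 2.12, 1.92 and 1.32 TPM) were low, and the atrial Bmp10 had no count. The whole atrial list of 11 genes summed to 603, 1071, 554 and 753 TPM, of which Nppa, described above, was the largest part, and 8 of the genes were detected in every mouse. Among them Myl1 stood at 38.5, 63.8, 47.7 and 61.9 TPM and the potassium channel Kcna5 at 33.8, 42.9, 21.7 and 60.9 TPM. Surfactant genes Sftpc, Sftpa1 and Sftpd and the liver genes Alb and Fgb had no count. The other liver genes were Ttr, with 2 to 5 counts in a mouse (0.575 TPM), and Apoa1, Serpina1a and Apob, with 1 count each over all mice. Of the lung list Ager (0.639 TPM), Scgb1a1 (0.311 TPM) and Sftpb (0.186 TPM) had a few counts. The thymus genes Ptcra, Dntt and Foxn1 had no count, Rag1 and Rag2 had at most 1 count in a mouse, and Cd1d1 of that list was detected at 3.61 TPM. Of the skeletal muscle list, Ckm and Acta1 are also heart genes, and the fast-fiber genes Mylpf (2.89 TPM) and Tnni2 (3.47 TPM) were low.

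Gene groups of other organs were silent for the most part. Of 1102 olfactory receptor genes, 1049 had no count, and only 4 reached 1 TPM in every mouse, led by Olfr1033 at 16.7, 10.3, 13.3 and 12.5 TPM. Of 324 vomeronasal receptor genes 310 had no count, and of 55 defensins 48 had none, with no member at 1 TPM in all mice in either group. Zinc finger genes of the Zfp series were the opposite case: 302 of 359 (84.1%) were at 1 TPM or more in every mouse, yet all of them together held 0.371% of the mRNA.

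The 4 mice were alike for most genes. Among the 13110 genes with a mean of at least 1 TPM, the median SD of log2(TPM + 1) over the mice was 0.144 and the 90th percentile was 0.321. The SD was at least 0.5 for 369 genes (2.81%) and at least 1 for 30 genes. The common biological coefficient of variation estimated by edgeR was 0.121. Without PBS 1-1 it was 0.0942 and the median SD was 0.113, and 246 genes had an SD of at least 0.5. PBS 1-1 lay at least 0.5 below the median of the others for 814 genes and above it for 407, whereas PBS 2-5 lay above for 482 and below for 186.

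PBS 1-1 differed in its non-coding reads too. Yam1, which lies over ribosomal RNA sequence, took 4.69% of its counts, against 0.773% to 1.23% in the other mice. Malat1, a nuclear non-coding RNA, took 1.10% against 0.185% to 0.300%. In the same mouse Lars2, with its stretch that resembles ribosomal RNA, stood at 13071 TPM, against 5004, 3789 and 4755 TPM. Relative to the other mice, the 20% of genes with the lowest GC content had a median log2 difference of 0.09 in PBS 1-1 and the 20% with the highest one of -0.17. PBS 2-5 showed the opposite tilt, with medians of -0.12 and 0.14. The part of GC content and of non-coding reads in the differences named here was not tested.

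Many genes of the circadian clock had their extremes in PBS 1-1 and PBS 2-5. Of 19 such genes, 7 were lowest in PBS 1-1 and highest in PBS 2-5, 5 were highest in PBS 1-1 and lowest in PBS 2-5, and 7 had neither pattern. Of all 13110 genes with a mean of at least 1 TPM, 20.7% were lowest in PBS 1-1 and highest in PBS 2-5 and 13.3% the reverse, and these were also the mice with opposite tilts by GC content. Arntl, which encodes the activator BMAL1, stood at 36.0, 19.9, 17.7 and 9.33 TPM, and its partner Npas2 at 5.92, 5.02, 4.70 and 3.30 TPM. Nfil3, which has its peak close to that of Arntl, ran from 40.6 TPM in PBS 1-1 to 13.6 TPM in PBS 2-5. The output genes Dbp (15.1, 31.0, 59.0 and 67.3 TPM) and Tef (45.3, 59.6, 77.2 and 88.4 TPM) ran the other way. So did Per3 (6.94, 11.3, 15.8 and 20.2 TPM), whereas Hlf was lowest in PBS 1-3 and highest in PBS 2-5. Per1 (32.7, 51.5, 36.6 and 99.1 TPM) and Per2 (7.50, 9.70, 6.48 and 20.9 TPM) were highest in PBS 2-5, although Per2 was lowest in PBS 2-1. Exons of Sphk2 on the opposite strand overlap 18.0% of those of Dbp. The hour at which each heart was taken is not given in the sources used here.

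Genes that respond to fasting and glucocorticoids had the widest spread of the gene classes examined (coefficient of variation 33.3%), with 0.203%, 0.320%, 0.305% and 0.465% of the mRNA. Pdk4, the uncoupling protein Ucp3 (37.6, 97.6, 138 and 163 TPM) and the lipase inhibitor Angptl4 (8.54, 38.9, 38.9 and 28.1 TPM) are targets of fatty acid-activated receptors, and each was lowest in PBS 1-1. The metal-binding metallothioneins Mt1 (639.8, 969, 955 and 1714 TPM) and Mt2 (63.5, 228, 229 and 448 TPM) had the same lowest mouse and were highest in PBS 2-5. The muscle ubiquitin ligase Trim63 did not share the pattern, at 278, 266, 273 and 235 TPM.

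Immediate early genes, which respond to stimuli within minutes, held 0.139%, 0.0911%, 0.0823% and 0.160% of the mRNA. Egr1 stood at 85.7, 44.6, 46.9 and 110.1 TPM, Fos at 41.5, 21.2, 33.6 and 62.6 TPM and Zfp36 at 89.8, 77.2, 82.2 and 199 TPM. PBS 2-5 was the highest in all 3. Interferon-stimulated genes were low in every mouse, at 0.0312% to 0.0490% of the mRNA, and Ifi27l2a (108 ± 22.7 TPM) and Bst2 (107 ± 23.4 TPM) led them.

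**Figure D5:**
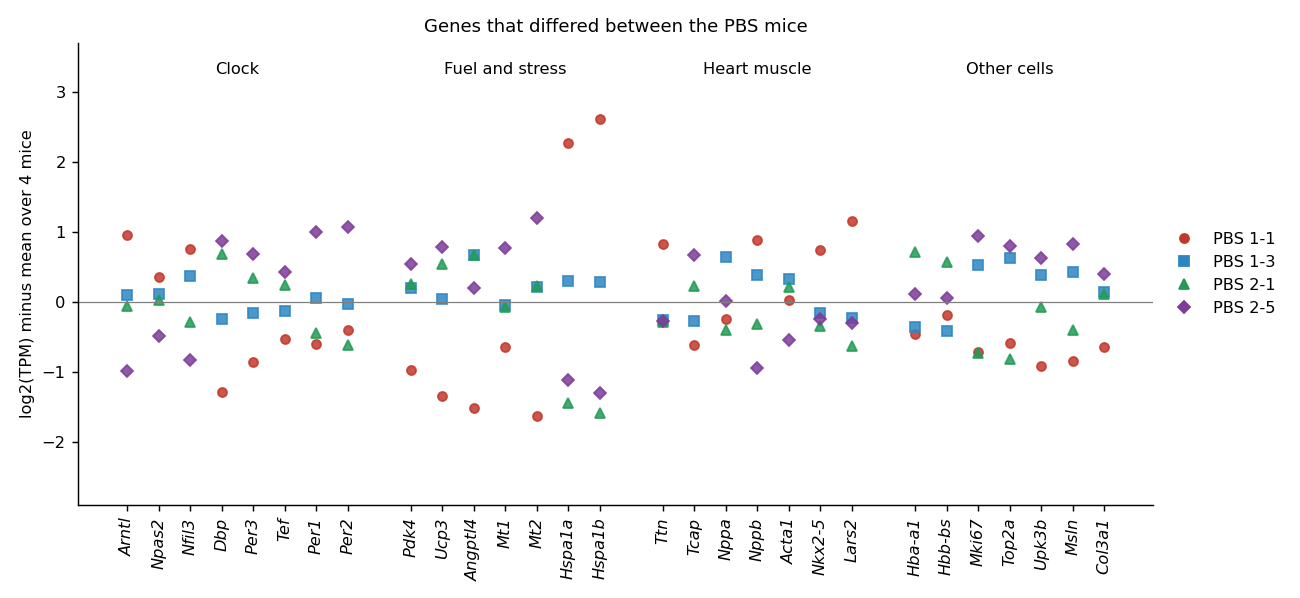
Log2 TPM of 29 genes in each PBS mouse, relative to the mean log2 TPM of the 4 mice. Arntl and Nfil3 run from PBS 1-1 at the top to PBS 2-5 at the bottom and Dbp and Per3 the other way; Hspa1a, Hspa1b, Ttn and Lars2 are highest in PBS 1-1, and Pdk4, Ucp3, Angptl4 and Mt2 are lowest there.

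The 20 genes with the largest spread were mostly short or scarce: 8 had a length under 300 bases, and 12 had fewer than 100 counts over the mice. PBS 1-1 was the highest mouse for 11 of them. The inducible heat shock genes Hspa1a (40.8, 10.4, 3.13 and 3.93 TPM) and Hspa1b (46.6, 9.34, 2.54 and 3.10 TPM), near-identical neighbors whose reads may have been divided, were of this kind. So were the SCAN domain gene Scand1 (101, 16.3, 10.4 and 11.7 TPM) and the neurotrophic factor Nrtn (43.7, 5.03, 4.05 and 4.64 TPM). The peptide transporter Slc15a2 showed another pattern, with 104, 1, 159 and 256 counts, and was near absent in PBS 1-3 alone.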

How the data were processed

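Ventricular RNA was isolated by the authors with miRNeasy kits, prepared with the TruSeq RNA kit v2, which does not mark strand, and sequenced as 150-base paired-end reads. The authors deposited whole-number counts of reads per gene, with gene length and biotype, not normalized, on the mm10 build. The submitters' processing notes name CASAVA, STAR and featureCounts. Versions, settings and annotation release are not given in the sources used here. The 4 columns of LLC1 mice were not used.

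TPM was computed from the counts and deposited lengths over protein-coding genes with Python 3.11.15, numpy 2.4.6 and pandas 2.3.3. Detection means at least 1 TPM in all 4 mice. Spread is the SD of log2(TPM + 1), and edgeR 4.0.16 in R 4.3.3 gave the biological coefficient of variation from an intercept-only fit. Values are descriptions without tests, and the replicates are separate mice. No pair of libraries agreed within sampling noise (chi-square per degree of freedom 5.97 to 28.3), so each was kept as a separate library. Alternatives were other lengths, CPM, all biotypes or no hemoglobin genes in the total, TMM and DESeq2 1.42.0 scaling, other thresholds and each mouse left out. Transcript lengths and GC content came from GENCODE release M21, in which 21778 of the 22032 protein-coding gene IDs occur. The principal transcript is the longest one of a gene that carries an APPRIS principal tag. It was found for 21371 genes, and the others kept the deposited length. Similar transcripts were searched with BLAST 2.17.0 at 97% identity or more over at least 150 bases. The steps were tested on simulated data.

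Genes named are those of gene lists for heart families, metabolic classes and cell types, the 30 most abundant genes and the 20 with the largest SD. A few genes of these lists are not reported here. Any other gene named was chosen after its values were seen. The lists and the choice of samples were made with earlier results of these data known.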

Additional observations from a re-analysis of the deposited data

Results flagged for a closer look

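A value of 1 mouse that stood apart from the other 3 was looked for by the gap rule of Dixon for 4 samples, in 53 family shares, 47 list sums, the 180 named genes with a mean of at least 1 TPM and 4 non-coding features that were picked after their values were seen. Chance puts about 1 in 20 such groups past this rule. The named genes include those with the largest SD between these mice and others chosen after their values were seen, so the number found cannot be read against that rate. The rule was met in 26 of 284 cases, and the mouse that stood apart was PBS 1-1 in 17 of them.

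In PBS 1-1 the Myh6 share of myosin heavy chain TPM was 92.8%, above 91.2% to 91.4% in the others. Ttn stood at 513 TPM there, against 237 to 241 TPM. The summed TPM of glycolysis genes was lowest in PBS 1-1, at 18459 against 21011 to 21425. The respiratory subunits Cox5b (1475 TPM) and Ndufb2 (123 TPM) were highest in it, and the elongation factor Eef1a2 (1224 TPM) was lowest. In PBS 2-5 the Cox7a1 share of subunit 7a was lowest, at 79.8% against 82.2% to 82.4%, while Cox8b (4567 TPM), Cox4i2 (40.2 TPM), Atpif1 (243 TPM) and Idh2 (2301 TPM) were highest.

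Of the other genes, the transcription factor gene Nkx2-5 (120.5 TPM), the heat shock gene Hspa1b (46.6 TPM), Nrtn (43.7 TPM), Scand1 (101 TPM) and Lars2 (13071 TPM) were highest in PBS 1-1. Zfp36, which shortens the life of cytokine mRNA, was highest in PBS 2-5 at 199 TPM. The thyroid receptor Thra was highest in PBS 2-1 at 96.96 TPM.

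Of the genes of other cells, the complement gene C1qa was lowest in PBS 1-1 at 92.7 TPM, and the Hbb-bs share of hemoglobin TPM was highest there at 38.2%, against 32.1% to 33.1%. The arterial endothelium list was highest in PBS 2-5 at 75.1 TPM, against 49.9 to 51.7 TPM, and the smooth muscle list in PBS 2-1 at 2357 TPM, against 2239 to 2245 TPM.

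Outside the protein-coding genes, Yam1 held 4.69% of all counts in PBS 1-1, AY036118 2.47%, Malat1 1.10% and Gm23935 1.30%. The highest shares in the other mice were 1.23%, 0.843%, 0.300% and 0.0260%.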

How the results depend on the processing

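Shares depended mainly on the length given to a gene and on which genes entered the total. The sarcomere share of 12.3% was 14.3% with the longest transcript, 14.7% with the principal transcript, 11.7% with 200 bases subtracted, 14.9% as CPM and 8.62% with all biotypes in the total. Under the last 4 of these settings the respiratory share of 11.1% was 11.7%, 13.3%, 5.24% and 7.69%, and the ribosomal share of 3.90% was 4.11%, 4.56%, 1.58% and 2.73%. The fatty acid share of 3.27% was 3.32% with the longest transcript, 3.16% with the principal transcript, 2.89% as CPM, 2.29% with all biotypes and 3.30% without hemoglobin genes. The top 20 genes held 21.7% with the longest transcript, 21.1% with 200 bases subtracted, 14.1% with all biotypes and 21.3% with the principal transcript, and 50% of CPM lay in 425 genes. The fibroblast sum was 2377, 3116, 1958 and 2487 with the longest transcript, CPM, all biotypes and the principal transcript. For the last 3 of these the endothelial sum was 2307, 1053 and 2752 and the macrophage sum 494, 652 and 704.

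The number of genes with an SD of at least 0.5 was 741 with a pseudocount of 0.1 and 179 among genes with a mean of at least 5 TPM. Leaving out each mouse in turn gave 246 to 521 such genes, a median SD of 0.113 to 0.153 and a biological coefficient of variation of 0.0942 to 0.141, each lowest without PBS 1-1 and highest without PBS 1-3. The causes were not tested. TMM scaling and DESeq2 size factors left the summary values within the spread between mice. The use of the principal transcript's length was chosen after seeing the data. The median SD was 0.188 between 1 and 10 TPM and 0.11 at 100 TPM or more, and the part of depth in this was not tested. No paired analysis was possible because no second group was compared.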

Other observations

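Some non-coding transcripts of the heart were abundant. Mhrt, a long non-coding RNA annotated as antisense, whose span overlaps that of Myh7, had 11358, 18923, 23467 and 25329 counts in PBS 1-1, PBS 1-3, PBS 2-1 and PBS 2-5, which was 0.0910%, 0.138%, 0.145% and 0.157% of all counts. Its share was lowest in PBS 1-1 and highest in PBS 2-5, as was the TPM of Myh7. Without strand in the libraries, reads of this pair cannot be told apart where they overlap. Neat1, the scaffold of nuclear paraspeckles, took 0.136%, 0.148%, 0.154% and 0.159%. Both were picked after their values were seen.

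The 37 mitochondrial genes were listed at 0, but unprocessed pseudogenes were not. Gm13340 took 0.294%, 0.431%, 0.469% and 0.423% of all counts and Gm29216 took 0.103%, 0.157%, 0.187% and 0.159%, and both were lowest in PBS 1-1. They too were picked after their values were seen.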
